A study of Homo sapiens with 8 samples.

Results

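The 83 genes described here are those of the deposited expression table whose symbols run from ZNF700 to ZNF899, with or without a trailing letter, out of 14526 genes in all. They were taken by their symbol alone. RefSeq uses 132 symbols of this form. Of these, 81 have a row in the table, and the other 2 genes carry older symbols. RNA from cells labelled HepG2, a line derived from a human liver carcinoma, was compared between 4 untreated control cultures and 4 that had been given 10 mM sodium benzoate (SB) 24 h before harvest. Both groups were grown in DMEM with serum, no genotype change is stated for either, and the study's methods call the 4 cultures of each group biological replicates. SB is a food preservative that cells turn into benzoyl-CoA, the donor for benzoylation of histone lysines, and the comparison asks which transcripts changed in its presence.

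Most genes with a ZNF symbol encode C2H2 zinc finger proteins, in which each finger holds a zinc ion between paired cysteines and histidines and reads a short stretch of DNA. The largest class also carries a KRAB box, which binds TRIM28 (KAP1). TRIM28 in turn gathers SETDB1, HP1 proteins and the NuRD complex to form repressive chromatin, often over transposable elements, and the genes of this class lie in tandem arrays made by repeated duplication, many of them on chromosome 19.

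The symbols ZNF700 to ZNF899 mark order of naming rather than kinship, but the genes were alike in several respects. By a search of the annotated proteins, 51 of the 83 (61.4%) held a KRAB box, against 2.0% of all genes of the table and 61.5% of the 358 genes with other ZNF numbers. Chromosome 19 held 40 of them (48.2%), against 6.93% of all genes. Chromosome 7 held 14 (16.9%), against 4.75% of the other ZNF genes. At least 13 fingers were found in 30 of the proteins. The genes were weakly expressed, with a median level of 3.35 RPKM (reads per kilobase of gene length, scaled to library size) against 8.51 for all genes, and their median counted length was 3580 bases against 3340. Levels of single genes ran from 0.27 RPKM for ZNF781 to 100 for ZNF768.

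Stretches of sequence are shown first for the genes to which the results return. The 84 bases of the pair below encode a finger and the linker after it in ZNF780B, the eighth largest rise, and in its neighbour ZNF780A. Only fingers that matched a strict pattern with this linker were searched, 10 in ZNF780B and 9 in ZNF780A. The first of the 10 is shown with the closest of the 9. Both stretches lie on the minus strand of hg38, at chr19:40036277-40036360, in exon 5 of 5, and at chr19:40075860-40075943, in exon 6 of 6. Capitals mark the codons of the zinc-binding cysteines and histidines. The stretches are identical at 79 bases and differ at 5.
ZNF780B: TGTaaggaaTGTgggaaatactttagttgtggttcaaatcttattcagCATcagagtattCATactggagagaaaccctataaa
ZNF780A: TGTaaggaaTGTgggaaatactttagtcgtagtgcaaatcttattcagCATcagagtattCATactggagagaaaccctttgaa

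The second set gives the 250 bases before the RefSeq transcription start (build GRCh38.p14) of the 2 genes with the largest rises and of ZNF821, a gene that fell. ZNF862 starts after chr7:149838125-149838374 and ZNF853 after chr7:6615360-6615609, both on the plus strand, and ZNF821 after chr16:71883542-71883791 on the minus strand. In the GENCODE annotation ZNF821 spans chr16:71859680-71895336, so the start used for it lies inside the gene. Capitals mark matches to 6 short motifs that were searched on both strands.
ZNF862: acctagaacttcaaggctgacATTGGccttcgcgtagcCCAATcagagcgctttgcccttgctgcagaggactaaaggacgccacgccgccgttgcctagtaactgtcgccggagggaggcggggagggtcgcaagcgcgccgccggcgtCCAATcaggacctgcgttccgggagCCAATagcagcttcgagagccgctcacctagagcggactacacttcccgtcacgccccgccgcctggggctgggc
ZNF853: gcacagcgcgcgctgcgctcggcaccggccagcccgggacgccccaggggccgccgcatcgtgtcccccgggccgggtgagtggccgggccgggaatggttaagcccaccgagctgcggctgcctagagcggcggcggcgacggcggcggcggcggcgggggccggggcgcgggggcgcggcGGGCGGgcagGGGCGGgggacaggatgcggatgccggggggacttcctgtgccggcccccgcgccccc
ZNF821: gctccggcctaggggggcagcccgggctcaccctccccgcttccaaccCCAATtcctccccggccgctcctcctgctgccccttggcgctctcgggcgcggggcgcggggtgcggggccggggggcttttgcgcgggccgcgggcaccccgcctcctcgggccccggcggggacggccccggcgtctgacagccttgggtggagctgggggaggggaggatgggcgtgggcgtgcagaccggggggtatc

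The promoter of ZNF862 held 4 matches to the CCAAT box, that of ZNF853 held 2 GC boxes and no CCAAT box, and that of ZNF821 held 1 CCAAT box. Promoter sequences (from 250 bases before to 50 after the start) were matched for 64 of the 83 genes. The CCAAT box (CCAAT) was in 62.5% of them, against 36.5% of the 11256 matched genes of the table and 35.7% of all 27305 RefSeq promoters. The ETS site (CCGGAAG) was in 35.9%, against 18.4% and 10.7%. The GC box (GGGCGG) was in 70.3%, close to the 70% over the table. The remaining motifs were the E-box (CACGTG, 4.69% against 10.1% over the table), the TATA box (TATAAA, 6.25% against 5.51%) and the cAMP response element (TGACGTCA, in none of the 64, against 3.26%). Of the 38 matched genes that rose, 60.5% held a CCAAT box, 44.7% an ETS site and 63.2% a GC box, and of the other 26 genes 65.4%, 23.1% and 80.8%. These are matches of letters, and nothing was measured at these sites.

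The cell identity was checked on marker genes. Of 22 hepatocyte markers, 18 have no row in the table, among them ALB, AFP, APOA1 and TTR, which HepG2 cells are known to express strongly. The other 4 summed to between 2.84 and 3.22 RPKM in the controls and between 5.82 and 6.17 after SB. Of 8 markers of neuronal cells and embryonic kidney lines, 5 have a row, and they summed to between 115 and 133 RPKM in the controls and between 80.5 and 84.2 after SB. Most of this sum came from NEFL, NEFM and LIN28B (means of 42.2, 38.0 and 34.0 RPKM in the controls). INA rose from 5.29 to 9.1 RPKM, whereas the other 4 fell. Of 7 fibroblast markers 3 have a row (6.13 to 8.32 RPKM in the controls, 6.07 to 6.29 after SB), and of 7 immune cell markers 2 (2.09 to 2.34 and 2.18 to 3.14). The data thus go against the label, and the samples are called control and SB-treated cells here. In bulk RNA, fewer cells of a kind and less RNA per cell cannot be told apart. Each library held between 36990091 and 44878446 reads on the genes of the table, recovered from the RPKM values. Of these reads the 83 genes took 0.202% to 0.207% in the controls and 0.242% to 0.245% in the SB-treated cultures. These shares leave out the TMM factors of library size (0.957 to 0.969 in the controls, 1.03 to 1.04 after SB). The rise in share is thus larger than on the scale of the RPKM values.

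SB raised more of these genes than it lowered. The test was limma on log2(RPKM + 1), and its p-values were adjusted over all 14526 genes by the Benjamini-Hochberg method with a threshold of 0.05. By this test, 46 of the 83 (55.4%) were higher and 9 (10.8%) were lower, and 28 did not pass. Over all genes, 33% were higher and 32.6% lower. The 46 include ZNF781 and ZNF843, which passed the authors' filter on low values only through the SB-treated group. Their calls are no support for a rise, and they stay in the counts by class, length and level below. The median difference of the 83 was 0.15 on the log2 scale, or 1.16-fold in mean RPKM, against 0.00 and 1.0-fold over all genes. With library sizes free of TMM factors the median was 0.24, against 0.08 over all genes. Among the 358 other ZNF genes, 41.6% were higher and 16.8% lower, with a median of 0.09, and among 39 ZSCAN, ZKSCAN and ZFP genes 38.5% and 25.6%. These shares are set side by side as descriptions, with no test between lists. ZNF883 stood nearest to the threshold, with an adjusted p of 0.04998.

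Most changes were small. A ratio of mean RPKM of at least 1.5 together with the limma call was met by 12 of the 83 (14.5%), against 9.16% of all genes. Of these 12, 2 (ZNF781 and ZNF843) passed the authors' filter on low values only through the SB-treated group. The corresponding fall was met by 0 of them with limma, against 5.31% of all genes. That count was also 0 at an unadjusted p under 0.05 and with voom, since the lowest ratio of means was 0.715. All 4 SB-treated values lay above all 4 controls for 43 genes (51.8%, against 31% of all genes), and below them for 8 (9.64%, against 30.5%). ZNF781 and ZNF843 are again among the 43.

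**Figure D1:**
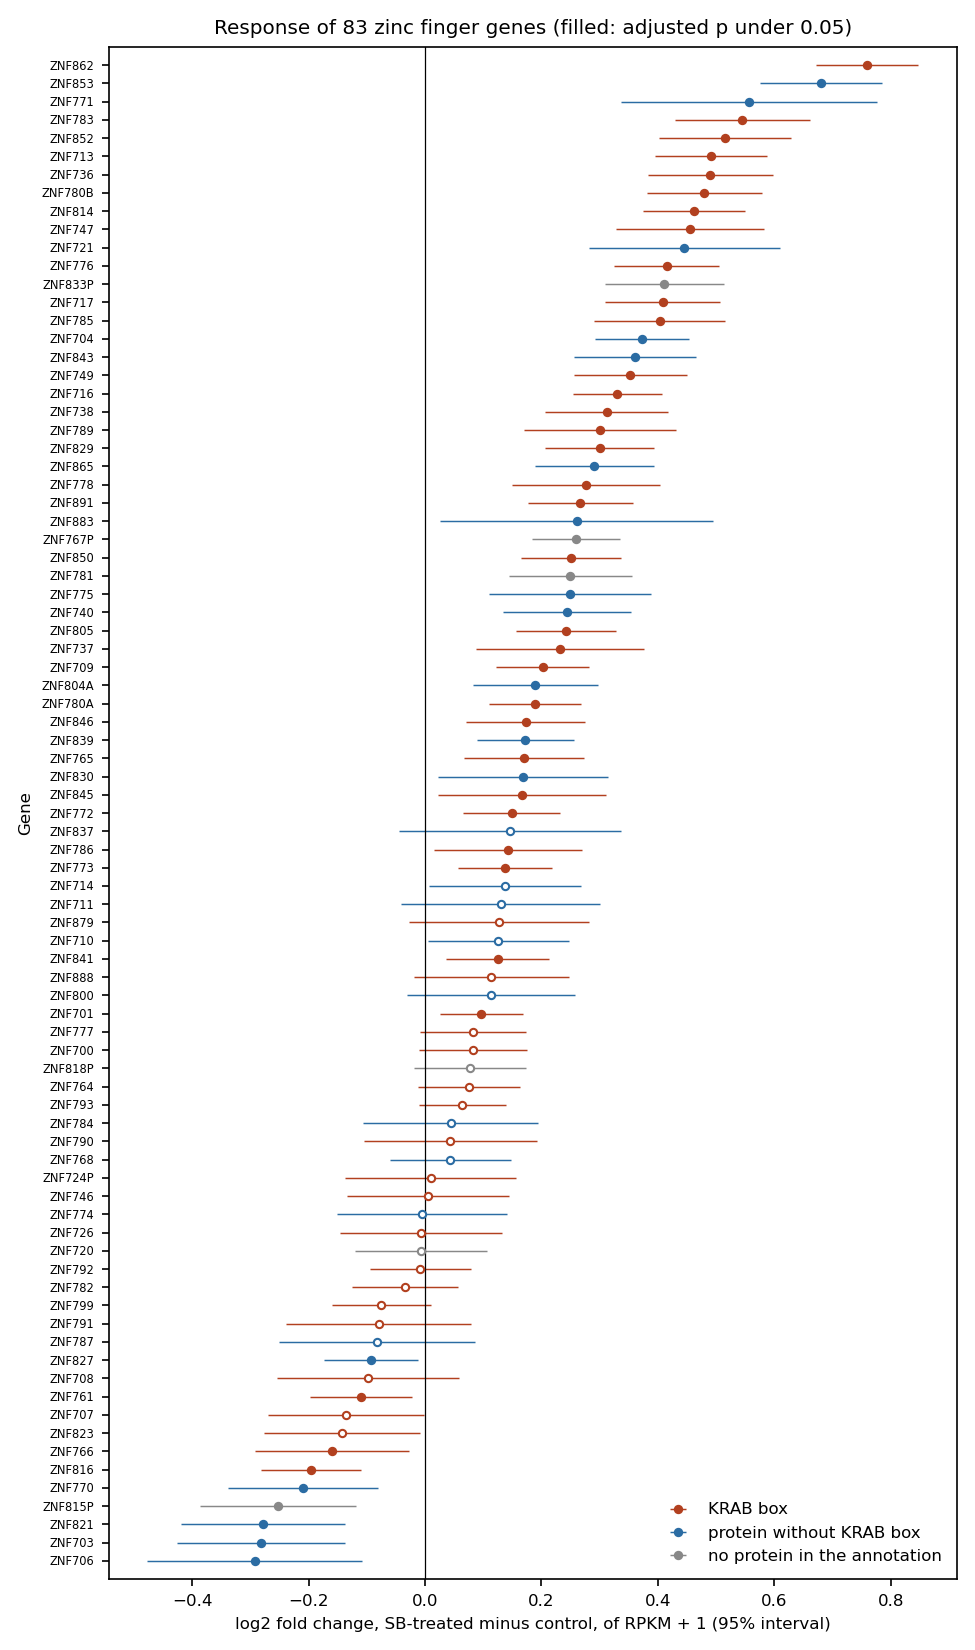
The log2 fold change of RPKM + 1 (SB-treated minus control, x axis) of each of the 83 genes (y axis), with its 95% interval from limma over 4 against 4 samples. Filled points passed the adjusted p of 0.05, and colours mark the KRAB box. The filled points on the right number 46 and those on the left 9, and ZNF862 lies farthest to the right at 0.76.

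The medians of single libraries showed the same order. Relative to the control mean, the median of the 83 genes on the log2(RPKM + 1) scale was 0.18, 0.14, 0.17 and 0.15 in the SB-treated replicates 1 to 4. In the controls it was 0.03, -0.01, -0.01 and -0.01. The 2 sets of medians did not overlap. Those of the controls lie near 0 because the control mean was taken off. These medians rest on the same values as the calls, with ZNF781 and ZNF843 included, and are no separate support. Replicate 1 stood apart in both groups: among the controls it was the highest or the lowest value for 57 of the 83 genes (35 to 38 for the other controls), and among the SB-treated for 58 (29 to 43). Its deviation from the other replicates of its group went with GC content across the 82 genes with a GC value (r = -0.579 in the control, -0.628 in the SB-treated replicate, both across genes). Without control replicate 1, 53 genes were higher and 10 lower, against 37.6% and 37.9% of all genes.

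The 2 largest rises were on chromosome 7. ZNF862 (chr7:149838375-149867479, plus strand) encodes a KRAB protein in which the search found 0 C2H2 fingers. Its RPKM was 2.78, 3.10, 2.95 and 3.09 in control replicates 1 to 4 and 5.67, 5.88, 5.89 and 5.51 in the SB-treated ones. The means were 2.98 ± 0.15 and 5.74 ± 0.183 (SD, n = 4), a ratio of 1.92, and the limma difference was 0.76 (SE 0.0392, adjusted p = 6.09e-07). Every SB-treated culture lay far above every control, with less spread within a group than between them. ZNF853 (chr7:6615610-6624290, plus strand), with 5 fingers and no KRAB box, had 1.93, 2.35, 2.17 and 2.31 RPKM in the controls and 3.95, 4.22, 4.10 and 4.16 after SB. Its ratio was 1.88 and its limma difference 0.68 (SE 0.0468, adjusted p = 2.33e-06). Its groups did not overlap either.

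ZNF783, a KRAB gene that lies in the same stretch of chromosome 7 as ZNF862, was the most abundant of the 10 largest rises. It had 8.07, 9.39, 9.40 and 9.22 RPKM in the controls and 13.2, 13.7, 14.3 and 13.2 after SB. Control replicate 1 lay below the other controls, and the groups did not overlap. ZNF771, a gene on chromosome 16 with 8 fingers and no KRAB box, had 3.04, 2.44, 3.37 and 2.44 RPKM against 3.77, 4.68, 5.23 and 4.77. It rose 1.64-fold (limma difference 0.56, SE 0.098, adjusted p = 0.000748). Its spread was wide in both groups, and its lowest SB-treated value lay just above its highest control.

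The other 6 of the 10 were all KRAB genes. ZNF852 on chromosome 3 went from 3.65 ± 0.209 to 5.65 ± 0.384 RPKM (SD, n = 4), ZNF713 on chromosome 7 from 2.25 ± 0.0525 to 3.58 ± 0.245, and ZNF736 on the same chromosome from 5.20 ± 0.392 to 7.70 ± 0.141. ZNF780B, ZNF814 and ZNF747 reached 2.74, 3.02 and 8.26 RPKM from 1.68, 1.92 and 5.76. For these 6 the limma difference was between 0.46 and 0.51 with adjusted p from 7.48e-06 to 8.2e-05, and in none did the groups overlap. ZNF852 shares 13.3% of its 50-base windows with ZKSCAN7 and ZNF814 shares 10.2% with other genes, mostly ZNF587B, which fell from 5.46 to 4.2 RPKM, so that 50-base reads cannot always be told apart there. Groups without overlap were a condition for being among these 10. The exact two-sided permutation test of 4 against 4 then always gives 0.0286, its smallest p, so it adds no support.

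**Figure D2:**
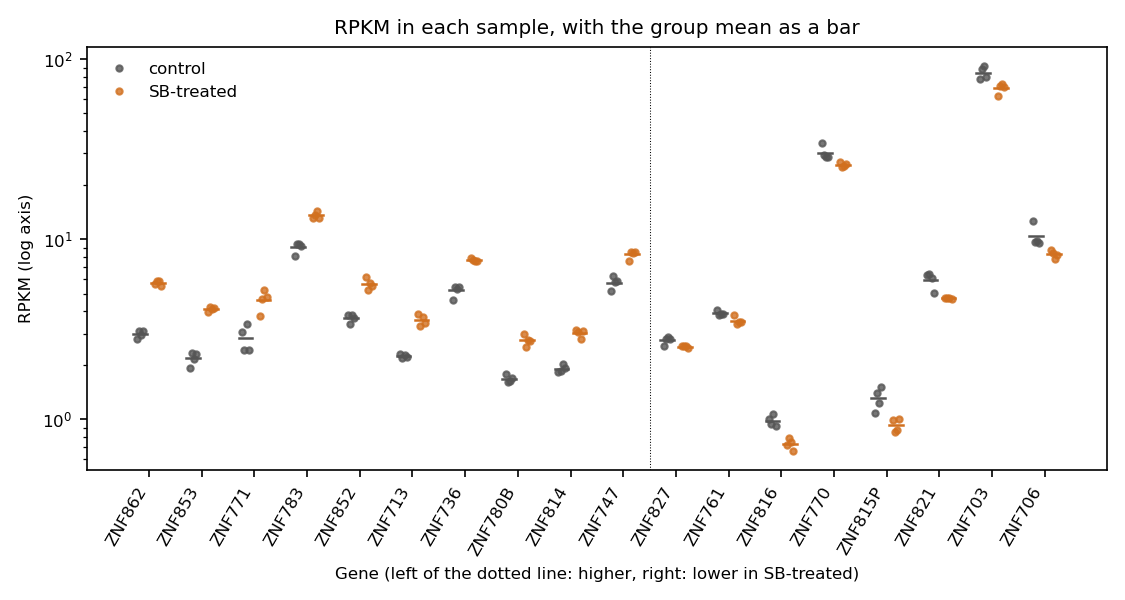
RPKM on a log axis in each of the 8 samples (points) and as the group mean (bars), for the 10 largest rises, left of the dotted line, and the 8 falls whose groups did not overlap, right of it. ZNF862 lies between 2.78 and 3.10 in the controls and between 5.51 and 5.89 after SB, whereas ZNF703 lies between 78 and 91.5 and between 62.4 and 72.7.

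Because the pseudocount of 1 lowers the fold of weak genes, the 3 largest ratios (ZNF781, ZNF843 and ZNF716) were of genes that these 10 do not include. They and ZNF785 are named here after their values were seen. ZNF781, which has no protein in the annotated transcript used, had 0.224, 0.154, 0.098 and 0.164 RPKM in the controls and 0.447, 0.312, 0.421 and 0.335 after SB, a ratio of 2.37. It rested on 11 reads in its lowest library and a mean of 20.2 reads in the controls. ZNF843 had a ratio of 2.05 and reached 0.759 RPKM (mean 64.0 reads), ZNF716 rose 2.04-fold to 0.671 (146 reads) and ZNF785 rose 1.69-fold to 1.5 (204 reads). ZNF781 and ZNF843 lay under 1 CPM in all 4 controls (0.297 to 0.674 and 0.562 to 0.852) and entered the table only through the SB-treated group, which made a rise a condition of their having a row. Their limma calls are therefore no support for a rise. For ZNF716 and ZNF785 the adjusted p was 2.35e-05 and 8.21e-05, and their groups did not overlap.

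The falls were fewer and took in some of the most abundant genes of the set. ZNF703, a corepressor known as an oncogene of luminal breast cancer, had 78, 87.9, 91.5 and 80.2 RPKM in the controls and 62.4, 71.5, 72.7 and 70.3 after SB. Its ratio was 0.82, with a limma difference of -0.28 (SE 0.0643, adjusted p = 0.00349). The highest SB-treated value lay below the lowest control. ZNF706, a small protein with 1 finger, had 12.7, 9.62, 9.76 and 9.60 RPKM against 8.76, 8.38, 7.75 and 8.23 (difference -0.29, SE 0.0823, adjusted p = 0.0107). Control replicate 1 stood well above the other controls, and the groups did not overlap. ZNF770, with 12 fingers and no KRAB box, fell from 30.3 ± 2.69 to 26 ± 0.79 RPKM (SD, n = 4), a ratio of 0.858.

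ZNF821, whose promoter is printed above, had 6.32, 6.42, 6.11 and 5.01 RPKM in the controls and 4.74, 4.74, 4.73 and 4.67 after SB (difference -0.28, SE 0.063, adjusted p = 0.00331). Its SB-treated values were nearly equal, and control replicate 4 lay closest to them. The pseudogene ZNF815P fell from 1.31 ± 0.186 to 0.934 ± 0.0822 RPKM, but it shares 49.5% of its 50-base windows with other loci, mostly ZNF890P, so its value is uncertain. That share is of the 1688 windows of 1 annotated transcript, whereas the reads of ZNF815P were counted over 2821 bases. The KRAB gene ZNF816 fell from 0.984 ± 0.0655 to 0.732 ± 0.0515 RPKM with a ratio of 0.744. ZNF761, another KRAB gene, fell with a ratio of 0.908 and ZNF827 with 0.915. ZNF761 shares 10.1% of its 50-base windows, mostly with ZNF765, which rose. Both calls were narrow (adjusted p = 0.032 and 0.0444 by limma). ZNF766, whose groups overlapped, was the ninth call, with a ratio of 0.877 and an adjusted p of 0.0365. With library sizes free of TMM factors, ZNF761, ZNF766, ZNF770 and ZNF827 did not pass, which left 5 falls.

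KRAB genes and the rest were set side by side. Of the 51 KRAB genes 31 (60.8%) were higher and 3 (5.88%) lower, with a median difference of 0.17. Of the 26 genes with a protein but no KRAB box, 12 (46.2%) were higher and 5 (19.2%) lower, with a median of 0.14. The 3 KRAB genes that fell were ZNF761, ZNF766 and ZNF816, which lie within 1 stretch of chromosome 19. The shares over the 220 KRAB genes among the other ZNF symbols were 43.2% and 14.5%. Over their 131 genes with a protein but no KRAB box the shares were 38.2% and 21.4%. By number of fingers, 12 of the 16 genes with up to 5 fingers were higher and 3 lower, 13 and 3 of the 31 with 6 to 12, and 18 and 2 of the 30 with 13 or more. Across the 77 genes with a protein, the Spearman correlation of the difference with the number of fingers was -0.0577.

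Gene length was kept in view because, over the whole table, longer genes were higher after SB. The counted length, recovered from the RPKM values, was 568 to 14386 bases for the 83 genes. Split at the quartiles of all genes (2137.25, 3339.5 and 5154 bases), 53.8%, 30.8%, 66.7% and 75.0% of them were higher from the shortest to the longest quartile, with 13, 26, 24 and 20 genes. Over all genes these shares were 19%, 27.8%, 36.7% and 48.3%. In each quartile a larger share of the 83 than of all genes was higher, by the least in the second. For falls the shares were 0.0%, 19.2%, 8.33% and 10.0%, against 47.9%, 36.2%, 28.1% and 18.3%. The median difference was 0.17, 0.08, 0.18 and 0.25 in the 4 quartiles, whereas over all genes it ran from -0.14 to 0.10. Across genes, the Spearman correlation of the difference with length was 0.231 over the 83 and 0.30 over the table.

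**Figure D3:**
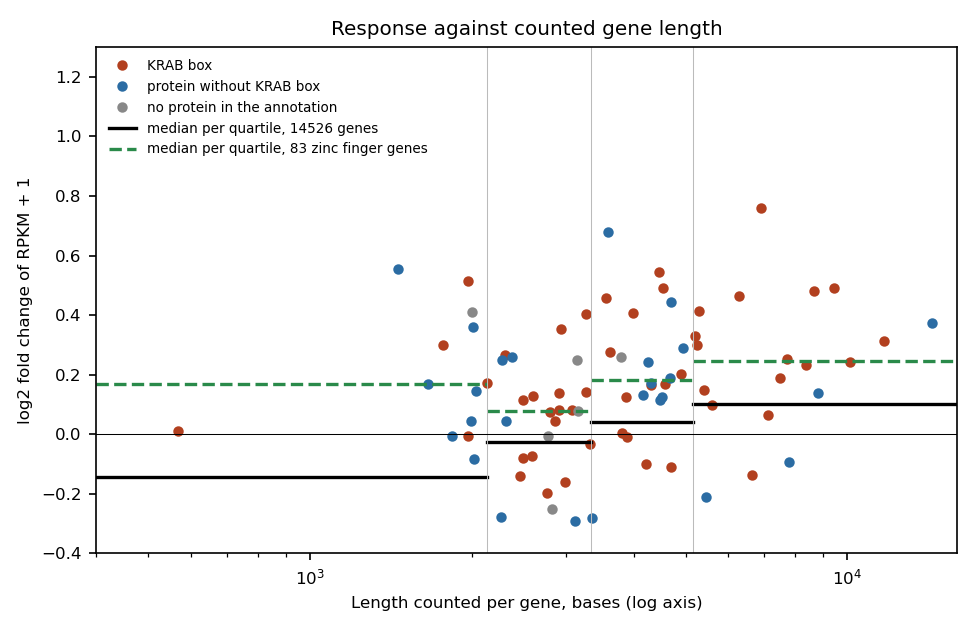
The log2 fold change of RPKM + 1 against counted gene length in bases (log axis) for the 83 genes, coloured by KRAB box. Solid lines give the median of all 14526 genes and dashed lines the median of the 83 in each quartile of length, and the dashed line lies above the solid one in all 4 quartiles (0.17 against -0.14 in the shortest).

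After a correction for length fitted across all genes, 41 of the 83 were higher and 9 lower, against 30.4% and 32.3% of all genes. Of the 46 genes higher without the correction, 38 were still higher. With length and GC content corrected together, 48 were higher and 10 lower, against 35.3% and 35.8% of all genes. ZNF704, the longest at 14386 bases, rose from 4.95 ± 0.106 to 6.70 ± 0.264 RPKM (SD, n = 4), and its limma difference of 0.37 became 0.16 under the length correction (adjusted p = 0.00436). ZNF738 (11721 bases) rose from 1.21 to 1.75 RPKM, and its difference of 0.31 became 0.17 (adjusted p = 0.0111). ZNF805 (10126 bases) rose from 2.74 to 3.43 RPKM, and its difference of 0.24 became 0.08 and no longer passed (adjusted p = 0.0705). The long genes thus kept their direction but lost much of their size. For ZNF862, with 6897 bases, the difference was 0.64 in place of 0.76.

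The shortest genes moved the other way under the same correction. ZNF771 (1455 bases) went from 0.56 to 0.68. ZNF830 (1657 bases), a protein linked to RNA splicing and the response to DNA damage, went from 0.17 (adjusted p = 0.0443) to 0.29 (adjusted p = 0.00541). ZNF724P, counted over 568 bases, had 6.58, 6.04, 6.21 and 7.75 RPKM in the controls and 6.60, 6.91, 6.82 and 6.36 after SB, so that its groups overlapped throughout. Its difference was 0.01 (95% CI -0.14 to 0.16, adjusted p = 0.904), and the length correction turned it into a call of 0.24 (adjusted p = 0.016). All 3 short genes thus had a larger difference after the correction than before it.

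The level of expression also went with the calls over the table. In quartiles of mean RPKM (bounds 2.45, 8.51 and 21.2), 56.0%, 64.3%, 36.4% and 20% of the zinc finger genes were higher (25, 42, 11 and 5 genes), against 42.8%, 43.4%, 32.4% and 13.2% of all genes. Thus 67 of the 83 were in the lower 2 quartiles, where rises were commoner over the table as well. The Spearman correlation of the difference with level was -0.0407 over the 83 and -0.364 over all genes. With GC content it was 0.0152 over 82 genes and 0.129 over the table. What part of the difference between the 83 and all genes goes with length, level or GC content was not tested.

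**Figure D4:**
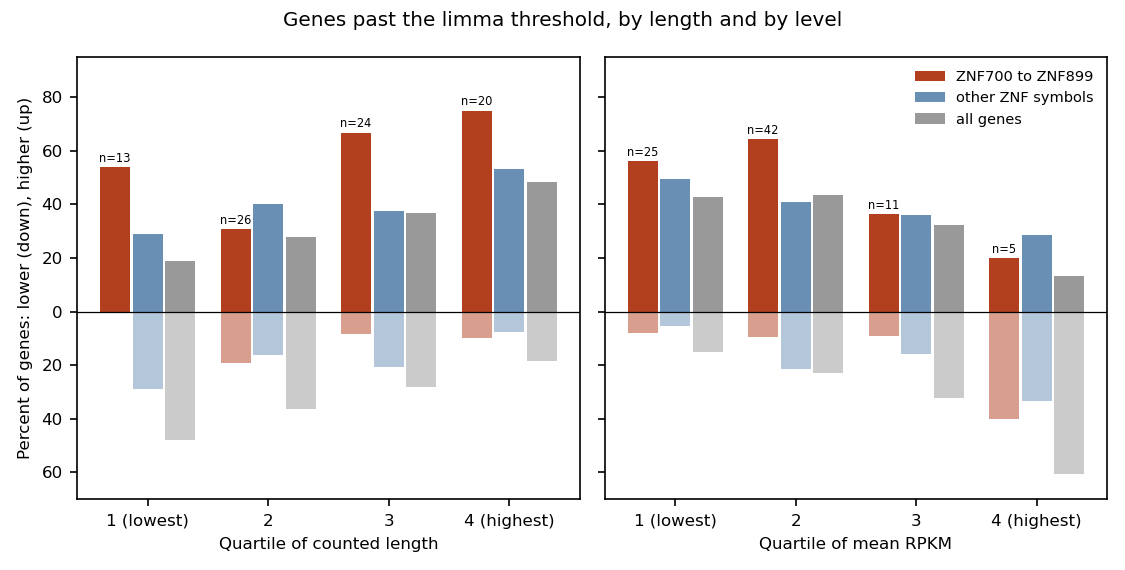
Percent of genes that passed the limma threshold as higher (bars above 0) or lower (paler bars below 0) in quartiles of counted length (left) and of mean RPKM (right), for the 83 genes, the 358 other ZNF genes and all 14526 genes. The number above a bar is the count of the 83 in that quartile, and in the longest quartile 75.0% of them were higher, against 53.3% of the other ZNF genes and 48.3% of all genes.

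Neighbouring genes did not always move together. A run was taken as at least 3 of the 83 genes with gaps of up to 500000 bases. The run at chr19:57240632-58381030 held 7 genes, of which 6 were higher (ZNF805, ZNF749, ZNF772, ZNF773, ZNF776 and ZNF814) and ZNF837 did not pass. On chromosome 16 (30407414 to 30585769), ZNF771, ZNF747 and ZNF785 were higher, while ZNF768 and ZNF764 between them did not pass. The run at chr7:149069641-149867479 held 6 genes with 4 higher, from ZNF862 at 0.76 to ZNF746 at 0.01. The run at chr19:52064465-53461862 was mixed, with 4 of 9 genes higher and 3 lower and differences from -0.20 to 0.17. The 6 genes at chr19:11682546-12633840 had a median of 0.00, with 2 higher. In the 40 genes of chromosome 19 as a whole, 21 (52.5%, ZNF781 among them) were higher and 3 (7.5%) lower (median 0.14). Over all genes of that chromosome the shares were 35.0% and 24.1%, and over its other ZNF genes 50.6% and 10.0%. In the 14 of chromosome 7, 10 (71.4%) were higher and 1 (7.14%) lower (median 0.28). There the shares were 33.2% and 33.3% over all genes, and 35.3% and 17.6% over the 17 other ZNF genes. Over all genes of chromosome 16 they were 36.7% and 29.1%.

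**Figure D5:**
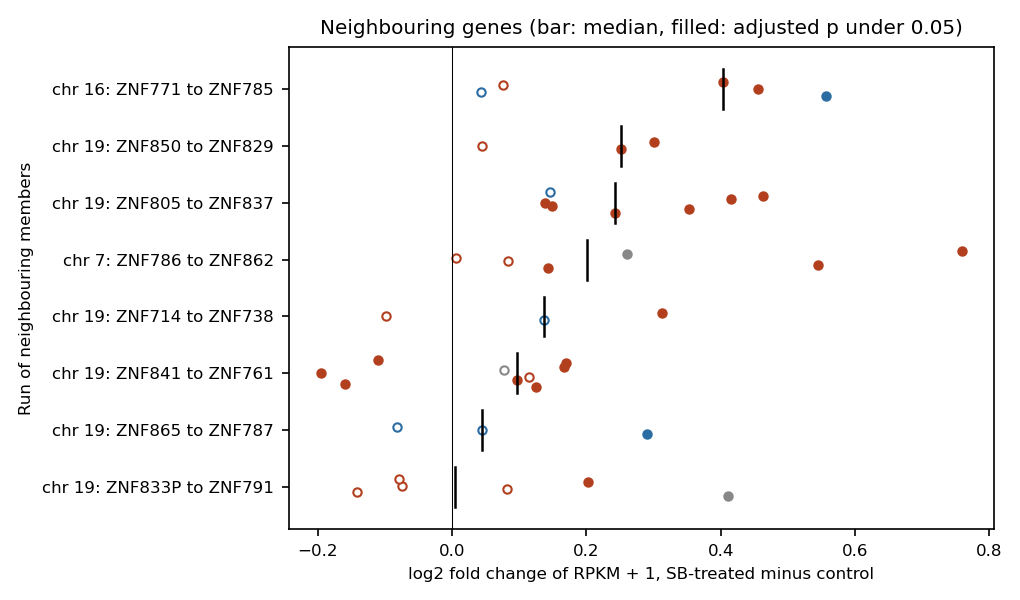
The log2 fold change of RPKM + 1 (x axis) of the genes in each run of at least 3 neighbours (y axis, named by the first and last gene). Filled points passed limma's adjusted p of 0.05, colours mark the KRAB box as in the ranked plot, and bars are medians, from 0.00 in the run from ZNF833P to ZNF791 to 0.40 in the run on chromosome 16.

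The pair whose fingers are printed above differed in response. ZNF780B and ZNF780A are neighbouring KRAB genes on chromosome 19 with 21 and 17 fingers. ZNF780B had 1.78, 1.61, 1.64 and 1.70 RPKM in the controls and 2.98, 2.52, 2.77 and 2.71 after SB. ZNF780A had 4.84, 4.65, 4.87 and 4.53 RPKM and then 5.69, 5.55, 5.51 and 5.33. Both rose, ZNF780B by 1.63-fold and ZNF780A by 1.17-fold. The ratio of ZNF780B to ZNF780A within a sample went from 0.357 ± 0.0182 to 0.497 ± 0.0304 (SD, n = 4, exact permutation p = 0.0286, the smallest possible, for a pair chosen after its values were seen). With the length correction, the difference of ZNF780A was 0.05 and did not pass (adjusted p = 0.219), and that of ZNF780B was 0.35.

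Of their 50-base windows, ZNF780B shares 2.72% with other genes and ZNF780A 4.66%. For some other genes the share is larger, so that 50-base reads cannot always be told apart there. ZNF767P, a pseudogene next to ZNF746, shares 28.9% of its 50-base windows with other loci, mostly ZNF746. These shares are of the windows of 1 annotated transcript per gene. For ZNF767P that transcript has only 516 windows, 149 of them shared, whereas its reads were counted over 3791 bases. ZNF767P rose 1.23-fold to 7.60 RPKM, while ZNF746 had means of 10.5 and 10.5. ZNF799 shares 34.5%, mostly with ZNF443, and neither passed (differences -0.07 and 0.01). ZNF773 shares 17.9%, mostly with ZNF419, and both were higher. For 64 of the 82 genes with an annotated transcript the share was under 5%. The kit keeps strand, but the strand setting of the counting is not given in the sources used here, so reads of overlapping antisense genes may be included.

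Genes with a known role outside this class's usual work were looked up whatever their values. ZNF768, linked to RAS signalling and cell proliferation, was the most abundant of the set, at 93.1, 101, 105 and 95.9 RPKM in the controls and 96.7, 103, 102 and 105 after SB. Its groups overlapped, with a difference of 0.04 (95% CI -0.06 to 0.15, adjusted p = 0.425). ZNF711, an X-linked gene of intellectual disability that acts with the demethylase PHF8, had means of 25.3 and 27.7 RPKM and did not pass (95% CI -0.04 to 0.30). Without control replicate 1, ZNF711 passed with a difference of 0.21 (adjusted p = 0.000553). ZNF740, the fifth most abundant, rose from 21.9 ± 1.51 to 26 ± 0.53 RPKM.

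ZNF746 (PARIS), a repressor of the PGC-1alpha gene and a substrate of Parkin, had 9.19, 11, 11.6 and 10.1 RPKM in the controls and 10.8, 10.7, 10.4 and 10.0 after SB. Its difference was 0.01 (95% CI -0.13 to 0.14), and with length and GC content corrected it was -0.12 (adjusted p = 0.0194). ZNF800, a repressor in enteroendocrine differentiation, had means of 5.31 and 5.80 RPKM and did not pass (95% CI -0.03 to 0.26), but passed without control replicate 1, with a difference of 0.18 (adjusted p = 0.00094). ZNF804A, at a risk locus for schizophrenia, rose from 0.834 ± 0.049 to 1.09 ± 0.129 RPKM, a ratio of 1.31 (adjusted p = 0.00618). ZNF827, which brings NuRD to telomeres, is given among the falls. ZNF701 and ZNF841 had the smallest log2 differences among the rises without overlap (0.10 and 0.12), with ratios of 1.29 and 1.13, and did not pass after the length correction. ZNF750, ZNF763, ZNF804B and ZNF808 have no row in the table.

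The partners of KRAB proteins were called at shares close to those of all genes, when level was left out of account. Of 37 genes for TRIM28 and its silencing complexes, 36 have a row, of which 10 (27.8%) were higher and 12 (33.3%) lower and 14 did not pass, with a median difference of 0.01. Over all genes the shares were 33% and 32.6%. Most of the partners lay above 21.2 RPKM, in the top quartile of level. In that quartile 13.2% of all genes were higher and 60.5% lower, so all genes are not a background of like level. TRIM28 itself had means of 162 ± 24.3 and 156 ± 3.9 RPKM (SD, n = 4), and its difference of -0.04 did not pass (95% CI -0.26 to 0.19). TRIM28 passed as lower without control replicate 1 (-0.15, adjusted p = 0.000725) and with length and GC content corrected (-0.16, adjusted p = 0.016). SETDB1, the H3K9 methyltransferase of the complex, rose from 19.8 ± 0.712 to 21.4 ± 0.293 RPKM (adjusted p = 0.0277), a rise that did not pass after the length correction (adjusted p = 0.501).

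Subunits of the same complex differed among the partners. Of the HP1 genes, CBX5 rose 1.25-fold and CBX3 fell with a ratio of 0.84, and CBX1 did not pass (52.9 and 50.6 RPKM). In NuRD, MBD3 rose 1.35-fold, MTA1 1.22-fold and HDAC1 1.11-fold, while RBBP7 (0.745), HDAC2 (0.788), RBBP4 (0.859) and MTA2 (0.914) fell with the ratios given. CHD3 (0.923) and CHD4 (1.03) of NuRD did not pass. MORC2 (1.13-fold) and FAM208A (TASOR, 1.18-fold), which serve HUSH silencing, rose, but MPHOSPH8 (1.02) and PPHLN1 (1.03) of HUSH did not pass. ATRX (1.23-fold), the DNA methyltransferase gene DNMT3A (1.34-fold) and the H3K9 methyltransferase gene EHMT1 (1.35-fold) rose as well. The demethylase gene KDM1A (0.797), the histone gene H3F3B (0.791), TRIM24 (0.841), SMARCAD1 (0.873) and SUV39H2 (0.901) were among the other falls. Under library sizes without TMM factors, 16 partners were higher and 8 lower, when 43% of all genes were higher and 23.1% lower.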

How the data were processed

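Total RNA of 4 control and 4 SB-treated cultures was sequenced by the authors as stranded 50-base single reads. Per the submitters' processing notes, reads were mapped to hg38 with TopHat2 2.1.0 and counted with featureCounts 1.5.0, and edgeR 3.16.5 was used. Genes above 1 CPM in at least 2 samples were kept, library sizes were scaled with TMM factors, and the resulting RPKM of each gene in each library is what the authors deposited. The authors' deposited log2 fold change and mean log2 CPM, with a p-value and FDR from their own test, were not used. No per-sample column was left unused (0).

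Dividing out gene length and library size gave whole reads (tolerance 0.03 reads) for 100% of the 14526 genes. TMM factors recovered in this way were 0.957 to 0.969 in the controls and 1.03 to 1.04 after SB. Groups were compared with limma 3.58.1 (R 4.3.3), fitted without a block to log2(RPKM + 1), and with Benjamini-Hochberg adjustment over the table. Because of the pseudocount, fold changes of weak genes come out too small. Scripts were tested on simulated data. The added pseudocount, scaling, filter, voom, length, GC content, block, trend and leave-one-out alternatives are given in the closing section.

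Transcripts, GC content and proteins came from GENCODE release 44 (hg38), in which 82 of the 83 genes were matched. Fingers were counted by the C2H2 spacing pattern. A KRAB box was called where 14 of 40 residues equalled a consensus built from 286 windows of these proteins. The genes named are the 10 largest and 10 smallest differences among calls without overlap, the 5 most abundant, the 3 longest, the 3 shortest and those with a known role. The members and lists were chosen with earlier results of these data known. Where the text says that a gene "rose", "fell" or "passed", it refers to the limma threshold of 0.05. Some genes of the partner list are not reported here by name.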

Additional observations from a re-analysis of the deposited data

Results flagged for a closer look

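For 31 named genes, the 62 groups of 4 values were searched for a highest or lowest sample whose gap to the nearest other, as a share of the group's range on the log2(RPKM + 1) scale, exceeded Dixon's 95% limit. The limit was passed by 11 groups, where chance gives about 1 in 20, or 3.1. In 7 of them the distant sample was control replicate 1. It was the lowest control for ZNF783 (share 0.875) and ZNF736 (0.832), and the highest for ZNF706 (0.943), ZNF770 (0.861), ZNF761 (0.831), ZNF701 (0.882) and ZNF800 (0.835). SB-treated replicate 1 was the highest of its group for ZNF736 (0.867) and ZNF841 (0.906). SB-treated replicate 4 was the lowest for ZNF827 (0.833) and ZNF740 (0.852). The deviation of both replicates 1 went with the GC content of the genes, as given with the medians of single libraries, and what set these libraries apart was not tested.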

How the results depend on the processing

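Across the alternatives that kept all samples, between 41 and 57 genes were higher (30.4% to 43% of all genes) and between 5 and 11 lower (23.1% to 35.8%), and the count at 1.5-fold lay between 10 and 17 for rises and was 0 for falls. The 5 falls came with library sizes without TMM factors, where 57 genes were higher. Rises then made up 91.9% of the members' calls and 65.1% of all calls, against 83.6% and 50.2% with TMM factors. Leaving out 1 sample gave 41 to 53 rises (29.7% to 37.6% of all genes) and 6 to 10 falls (29.5% to 37.9%). The median log2 difference was 0.21 with a pseudocount of 0.1, 0.24 without TMM factors and 0.21 with voom, and 0.13 to 0.19 on leaving out 1 sample (highest without control replicate 1). Voom called 33.5% of all genes higher and 32.8% lower. Of the TRIM28 partners, 16 were higher without TMM factors, 6 with the length correction, with or without the replicate block, and 19 were lower with length and GC content corrected. Leaving out 1 sample gave 9 to 14 partners higher and 9 to 16 lower. TRIM28 was at 0.0692 without TMM factors, at -0.1554 with length and GC content corrected, where it passed as lower, and between -0.1524 and 0.0066 on leaving out 1 sample. ZNF746 was at -0.0294 with the length correction and -0.121 with length and GC content, each with or without the replicate block, and between -0.05 and 0.0502 on leaving out 1 sample. ZNF711 (0.16), ZNF724P (0.35) and ZNF800 (0.13) newly passed with length and GC content corrected. ZNF724P lay between -0.0283 and 0.0767 on leaving out 1 sample. On leaving out 1 sample, the calls of ZNF827 and ZNF830 were lost without any sample but control replicate 1, that of ZNF761 without control replicates 3 or 4 or SB-treated replicates 2, 3 or 4, that of ZNF701 without control replicates 2 or 4 or SB-treated replicates 1 or 2, that of ZNF841 without SB-treated replicate 1, and that of SETDB1 without control replicate 2 or SB-treated replicates 1, 2 or 3. The cause of these changes was not tested.

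Same-numbered replicates deviated together with correlations of 0.38, 0.327, 0.173 and -0.16 across genes. Replicates of unlike number were not compared, so these values cannot show whether the numbers mark pairs. The main test left the numbers out. With the replicate block, 47 genes were higher and 9 lower (33.6% and 33.7% of all genes), and the calls of ZNF827 (adjusted p = 0.0672 by limma) and SETDB1 (0.0511) were lost. Length and GC content with the block, an alternative chosen after seeing the data, gave 50 and 11 (34.8% and 35.1%). Of 627 values of single named genes over the alternatives, 549 kept both sign and call, 46 no longer passed, 18 newly passed and 14 changed sign (TRIM28, ZNF724P and ZNF746, none of which passed in the main test). Genes not above 1 CPM in at least 2 samples have no row, and weak members such as ZNF781 rest on few reads.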
